A study of Mus musculus with 8 samples.

Results

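Selectin ligands and sialomucins are the heavily glycosylated surface proteins through which blood cells and their precursors touch vessel walls and marrow stroma. Expression of 9 of their genes was examined in mouse hematopoietic stem cells after G-CSF (granulocyte colony-stimulating factor), a cytokine that expands neutrophils and moves stem cells from marrow into blood. The genes were Selplg, Cd44 and Glg1, which encode protein scaffolds bound by selectins, Cd34, Spn, Cd164 and Podxl, which encode sialomucins, and Fut7 and St3gal4, which encode transferases that build the bound sugar. They were taken by name from the function of their products, and each had exactly 1 probe set annotated to it alone, so all 9 were measured, among 19938 genes in all. Both groups were KSL SLAM cells of mouse bone marrow, sorted as Lineage- cells that were c-Kit+, Sca-1+ and CD150+ but CD48- and CD41-, either after G-CSF at 125 mcg per kg given 2 times daily under the skin (4 arrays) or after phosphate-buffered saline (PBS, 4 arrays), all taken at 36 h. The design text gives 5 to 10 mice per group and counts 4 groups per treatment, calling the PBS groups independent, so each array was read as 1 pool of mice and the spread between single mice was not measured. The sources used here give no strain, age or sex. The comparison asks which transcripts of stem cells differ after the mobilizing treatment.

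Selectins are lectins of activated vessels, platelets and leukocytes that catch flowing cells and let them roll. They bind only when a suitable scaffold carries a sugar cap of the sialyl Lewis x type, in which sialyltransferases add sialic acid and fucosyltransferases add fucose, and the scaffold of P-selectin further needs sulfated tyrosines. In marrow, whose sinusoids carry E-selectin and P-selectin without inflammation, these contacts take part in the homing and lodging of stem cells. Transcript levels do not report the glycan itself.

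The values are RMA intensities, which were analysed as log2. Median log2 intensity over the genes was between 5.74 and 5.89 on every array. The PBS replicate 3 array stood apart, with an interquartile range of 1.68 against 2.42 to 2.80 on the other arrays, and with correlations of 0.883 to 0.903 with them against 0.956 to 0.977 among them. Its bright genes read low and its dim genes high. Over the brightest 4985 genes, which hold Selplg, Cd44, Cd34, Spn, Cd164 and Glg1, the median of PBS replicate 3 minus the mean of the other PBS arrays was -0.46. Over the next 4984 genes, which hold Podxl, Fut7 and St3gal4, it was -0.12. Each of the 9 genes and the median of each gene list is therefore given with and without that array. So are other genes where leaving it out moved the value by over 1.5 times or changed a call. This was not done for summed intensities of lists, single genes of the gate, or single cell type markers other than Emcn. Nor was it done for genes of hyaluronan turnover or the profiles most like Selplg or Cd34. Of the gate's own genes, Kit was between 10.45 and 10.94 after PBS and between 10.24 and 10.49 after G-CSF. Its difference of means was -0.35 ± 0.17 SE. Cd48 was between 6.66 and 7.57 after PBS and at 7.31, 7.24, 7.85 and 8.95 in G-CSF replicates 1 to 4. That difference was 0.64 ± 0.36 SE. Slamf1 (CD150) was between 5.94 and 7.24 in all arrays and Itga2b (CD41) between 7.06 and 7.74, with differences of 0.16 and 0.10. The limma adjusted p of these genes was between 0.552 and 0.839. These levels cannot show absence, because no detection call was used here.

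No member passed the threshold of 0.05 for the adjusted p over all genes (limma), a threshold that 0.0953% of all genes passed. All 9 had a positive log2 fold change of G-CSF over PBS, between 0.12 and 1.22, with a median of 0.39, whereas 41.7% of all genes were positive and their median was -0.07. Among the 9969 brighter genes, which include all 9 members, 66.5% were positive and the median was 0.13. At an unadjusted p under 0.05, 4 of the 9 were higher (Selplg, Cd34, Podxl and Fut7) and 0 were lower, against 6.07% of all genes higher and 2.94% lower (1211 and 586 genes, or 1072 and 892 after median centring), and 9.74% higher among the brighter genes. All 4 G-CSF values lay above all 4 PBS values for 3 members (Selplg, Podxl and Fut7), as they did for 3.37% of all genes and 6.18% of the brighter genes, and below them for 0 members against 2.78% of all genes. Without PBS replicate 3, 7 of 9 were positive with a median of 0.30, where 46.9% of all genes were positive with a median of -0.02. In that setting 3 members (Selplg, Podxl and Fut7) were higher at an unadjusted p under 0.05, against 5.64% of all genes. Shares among the brighter genes, the closer background, were not taken without that array. The 9 genes were picked for their function with earlier results of these arrays known, so these shares describe the list and are no test of it. In sorted pools, more cells that hold a transcript and more transcript per cell cannot be told apart.

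**Figure D1:**
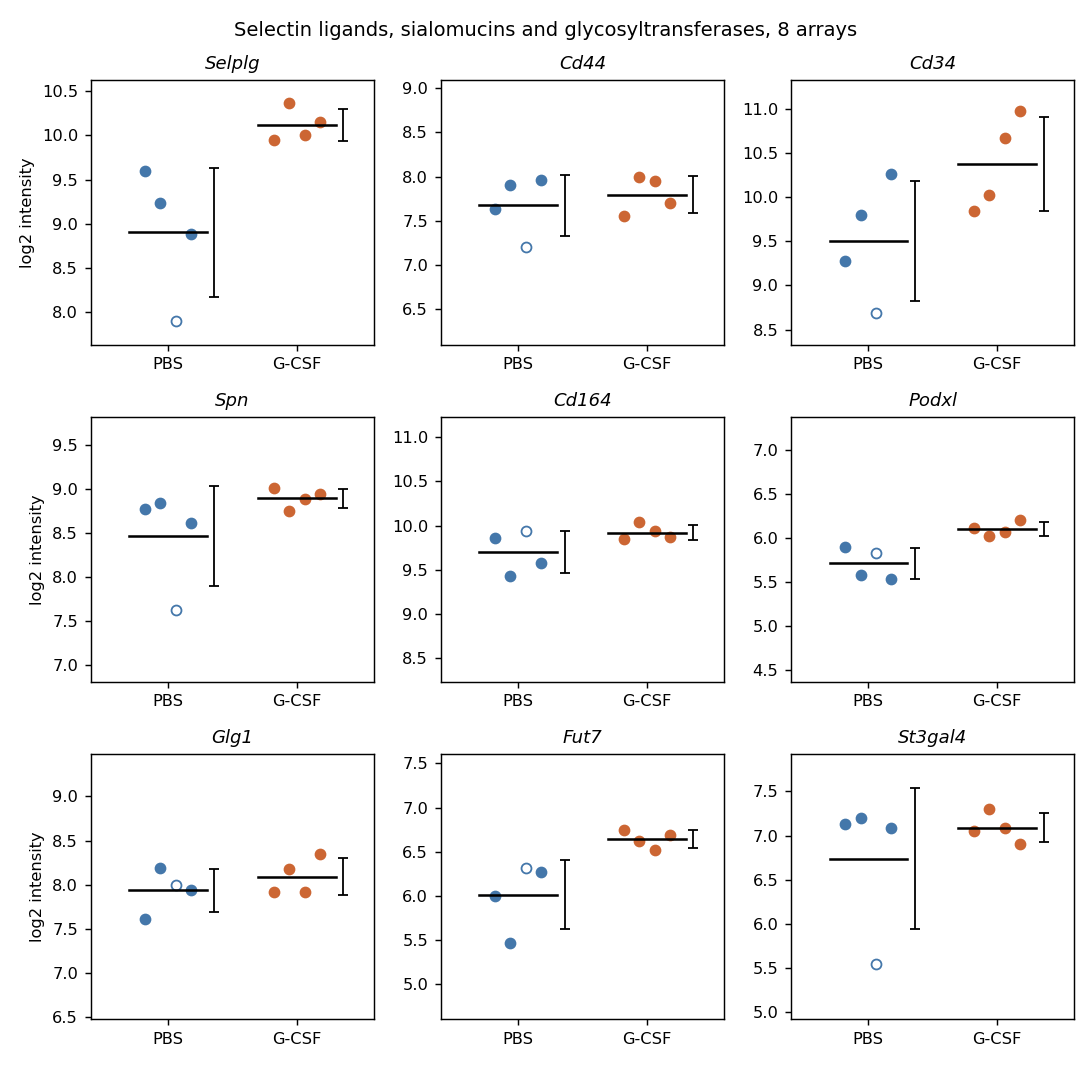
Log2 intensity (vertical axis, each panel spanning 3 log2 units) of the 9 genes on the 4 PBS arrays (blue, replicate 3 open) and the 4 G-CSF arrays (orange), in replicate order from left to right. Horizontal lines are group means and the bars beside them are 1 SD; the groups are separate for Selplg, Podxl and Fut7 and overlap for the other genes.

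Selplg encodes PSGL-1, the main leukocyte scaffold for P-selectin and a ligand of the other selectins as well. Its log2 intensity was 9.60, 9.23, 7.90 and 8.88 in PBS replicates 1 to 4 and 9.95, 10.36, 10.01 and 10.16 in G-CSF replicates 1 to 4. Every G-CSF array was above every PBS array, and the G-CSF arrays lay closer together (SD 0.18, n = 4) than the PBS arrays (SD 0.73, n = 4). Without PBS replicate 3 the SD of the PBS arrays was 0.36. The difference was a log2 fold change of 1.22 ± 0.31 SE, or 2.33-fold with a 95% interval of 1.44 to 3.75, and ranked 175 of the 19938 genes by p (limma adjusted p = 0.285). By the exact 2-sided permutation test over arrays, p = 0.0286, the smallest value that 4 against 4 arrays allow. Without PBS replicate 3 the log2 fold change was 0.88 ± 0.19 SE (limma adjusted p = 0.182), and over the 19 alternatives the adjusted p was between 0.116 and 0.643.

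Cd44 encodes the hyaluronan receptor, a glycoform of which binds E-selectin. It was at 7.64, 7.91, 7.20 and 7.96 in PBS replicates 1 to 4 and at 7.55, 7.99, 7.94 and 7.70 in G-CSF replicates 1 to 4, so the groups overlapped over most of their range. G-CSF minus PBS was 0.12 ± 0.21 SE (95% interval -0.34 to 0.57, limma adjusted p = 0.809). Without PBS replicate 3 it was -0.04 (95% interval -0.40 to 0.32), and it ran up to 0.21 as other arrays were left out.

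Glg1 encodes ESL-1, a cysteine-rich Golgi and surface glycoprotein that binds E-selectin when fucosylated. Its values were 7.61, 8.19, 8.0 and 7.94 after PBS and 7.92, 8.17, 7.92 and 8.35 after G-CSF. The groups overlapped, with a log2 fold change of 0.16 ± 0.19 SE (95% interval -0.25 to 0.57, limma adjusted p = 0.728), and 0.18 without PBS replicate 3. It was 0.05 without PBS replicate 1, 0.24 without PBS replicate 2 and 0.07 without G-CSF replicate 4.

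Cd34 encodes the sialomucin used as a stem and progenitor cell antigen, which vessel walls carry as well. It was at 9.27, 9.80, 8.68 and 10.27 in PBS replicates 1 to 4 and at 9.84, 10.02, 10.67 and 10.98 in G-CSF replicates 1 to 4. G-CSF replicates 3 and 4 were above every PBS array, while replicates 1 and 2 lay within the PBS range. The difference of means was a log2 fold change of 0.87 ± 0.35 SE, or 1.83-fold with a 95% interval of 1.07 to 3.12 (limma adjusted p = 0.517), and the exact 2-sided permutation p was 0.114. Without PBS replicate 3 it was 0.60 ± 0.32 SE (limma adjusted p = 0.64). The unadjusted p was under 0.05 in 11 of 19 alternatives, and not with array weights, without variance moderation, under either quantile setting, or without PBS replicate 1 or 3 or G-CSF replicate 3 or 4.

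Podxl encodes podocalyxin, a sialomucin of the same family as CD34. It read 5.90, 5.58, 5.83 and 5.54 after PBS and 6.11, 6.02, 6.07 and 6.20 after G-CSF. The G-CSF arrays all lay above the PBS arrays, by a small step. This step was a log2 fold change of 0.39 ± 0.16 SE, or 1.31-fold (95% interval 1.02 to 1.67, limma adjusted p = 0.527, exact 2-sided permutation p = 0.0286), and 0.43 ± 0.14 SE without PBS replicate 3. The unadjusted p was under 0.05 in 12 of 19 alternatives, and not without PBS replicate 2 or 4, without any single G-CSF array or with the replicate number as a block. Its mean over all arrays was close to the median of all genes, 5.84, and whether it stands above background was not tested.

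Spn encodes CD43, the abundant sialomucin of white blood cells that can carry E-selectin binding sugars. Its PBS values were 8.77, 8.84, 7.62 and 8.61 and its G-CSF values 9.0, 8.75, 8.88 and 8.93. Replicate 3 alone among the PBS arrays was low, and G-CSF replicate 2 lay below the highest PBS array. The log2 fold change of 0.43 ± 0.26 SE (limma adjusted p = 0.583) was 0.15 ± 0.13 SE without PBS replicate 3 (limma adjusted p = 0.799).

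Cd164 encodes endolyn, a sialomucin of endosomes and the surface of blood progenitors that has been tied to their adhesion and migration. It was at 9.86, 9.43, 9.94 and 9.57 after PBS and at 9.84, 10.04, 9.93 and 9.87 after G-CSF. The groups overlapped, and PBS replicate 3 was here the highest PBS array. The log2 fold change was 0.22 ± 0.17 SE (95% interval -0.16 to 0.60, limma adjusted p = 0.632), and 0.30 ± 0.15 SE without PBS replicate 3. Without PBS replicate 2 it was 0.13, and after quantile normalization 0.11.

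Fut7 encodes fucosyltransferase VII, the leukocyte enzyme that adds the last fucose of sialyl Lewis x. Its log2 intensity was 6.0, 5.47, 6.31 and 6.27 in PBS replicates 1 to 4 and 6.75, 6.62, 6.52 and 6.69 in G-CSF replicates 1 to 4. All G-CSF arrays lay above all PBS arrays, and the closest pair were PBS replicate 3 and G-CSF replicate 3. The log2 fold change was 0.63 ± 0.21 SE, or 1.55-fold with a 95% interval of 1.13 to 2.13 (limma adjusted p = 0.415, exact 2-sided permutation p = 0.0286). Leaving out PBS replicate 3 gave 0.73 ± 0.19 SE (limma adjusted p = 0.285). Leaving out PBS replicate 2, the lowest array, gave 0.45 ± 0.18 SE.

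St3gal4 encodes the sialyltransferase that caps lactosamine chains before Fut7 acts. It was at 7.13, 7.20, 5.54 and 7.08 after PBS and at 7.06, 7.31, 7.09 and 6.91 after G-CSF. PBS replicate 3 was far below the other 7 arrays, which lay between 6.91 and 7.31. The log2 fold change of 0.35 ± 0.33 SE (limma adjusted p = 0.678) rested on that array and was -0.05 ± 0.14 SE without it (limma adjusted p = 0.951).

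**Figure D2:**
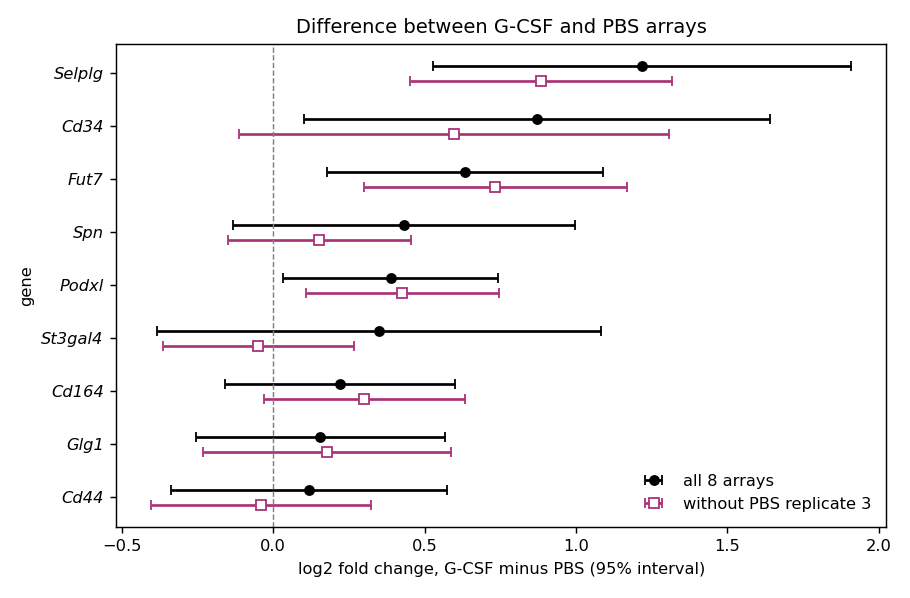
Log2 fold change of G-CSF over PBS (horizontal axis) for each of the 9 genes, with 95% intervals from limma, from all 8 arrays (filled circles) and without PBS replicate 3 (open squares). Intervals of Selplg, Fut7 and Podxl lie above 0 both ways, while the estimates of St3gal4 and Cd44 move from 0.35 and 0.12 to -0.05 and -0.04.

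RefSeq promoter windows (GRCm38.p6) were found for 7 of the 9 members. The 250 bases before the start site are shown for Fut7 and Cd34, the members with an unadjusted p under 0.05 that had such a window, the first of the 2 windows of Fut7 being shown, at chr2:25422992-25423241 (plus strand) and chr1:194938571-194938820 (plus strand). Capitals mark TTGCGCAA, the palindromic C/EBP word, which was searched on both strands.

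Fut7: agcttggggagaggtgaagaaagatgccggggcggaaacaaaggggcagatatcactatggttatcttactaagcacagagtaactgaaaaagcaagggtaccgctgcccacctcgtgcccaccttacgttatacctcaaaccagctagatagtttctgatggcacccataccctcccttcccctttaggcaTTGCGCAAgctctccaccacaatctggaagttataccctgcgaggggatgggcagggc

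Cd34: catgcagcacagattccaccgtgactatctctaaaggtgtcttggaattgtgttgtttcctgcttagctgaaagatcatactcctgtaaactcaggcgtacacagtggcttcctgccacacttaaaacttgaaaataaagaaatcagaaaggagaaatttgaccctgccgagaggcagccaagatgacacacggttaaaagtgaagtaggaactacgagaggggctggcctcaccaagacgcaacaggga

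The word lies between 58 and 51 bases before that start of Fut7. It is absent from the other window of Fut7 and from every window of another member. It occurs in 54 of 32851 windows of the same length, or 0.164%. The STAT word TTCNNNGAA, present in 7.02% of all windows, and the PU.1 word GAGGAAGT, present in 2.44%, were found in no window of a member. A STAT word with a spacer of 4 bases, present in 5.85% of all windows, was found in that of Cd44. These 4 words were among 11 that were searched, all chosen after the expression values had been seen, and a looser C/EBP word among them contains TTGCGCAA. No binding was measured, so a match is a string of letters and not a site. Windows of Cd34, Cd44, Spn and Fut7 held between 1 and 7 CpG dinucleotides, as 57.0% of all windows held 7 or fewer, and those of Cd164, Glg1 and St3gal4 held between 25 and 33, where 10.7% of all windows held 25 or more.

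The Lineage- c-Kit+ gate is meant to leave out neutrophils. They carry products of the members, those of Selplg, Spn and Fut7 among them. Without PBS replicate 3, log2 fold changes of Selplg and Fut7 were 0.88 and 0.73. Those of Spn, Cd44, Glg1 and St3gal4 were 0.15, -0.04, 0.18 and -0.05. Neutrophil markers had higher means in the G-CSF arrays. All 16 measured neutrophil markers had a positive log2 fold change, the median was 1.85, and 15 had an unadjusted p under 0.05 while 0 passed over all genes (lowest limma adjusted p = 0.0639). Without PBS replicate 3 the median was 1.73. Their summed intensity ran from 7226 to 17041 in the PBS arrays and from 18004 to 45166 in the G-CSF arrays. The mean log2 level of the list was 8.10, 7.13, 7.47 and 7.37 in PBS replicates 1 to 4 and 10.32, 10.35, 8.29 and 8.88 in G-CSF replicates 1 to 4. Stfa2, a stefin of granulocytes, was at 3.32 to 3.70 after PBS and at 10.05, 9.63, 5.89 and 6.94 after G-CSF. Selplg and Fut7 did not show that split between G-CSF replicates 1 and 2 and replicates 3 and 4. Selplg was at 9.95 and 10.36 in the former and 10.01 and 10.16 in the latter, and Fut7 at 6.75 and 6.62 against 6.52 and 6.69. Cd34 ran the other way, at 9.84 and 10.02 against 10.67 and 10.98. How far neutrophil transcripts take part in the differences of Selplg and Fut7 was not tested.

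**Figure D3:**
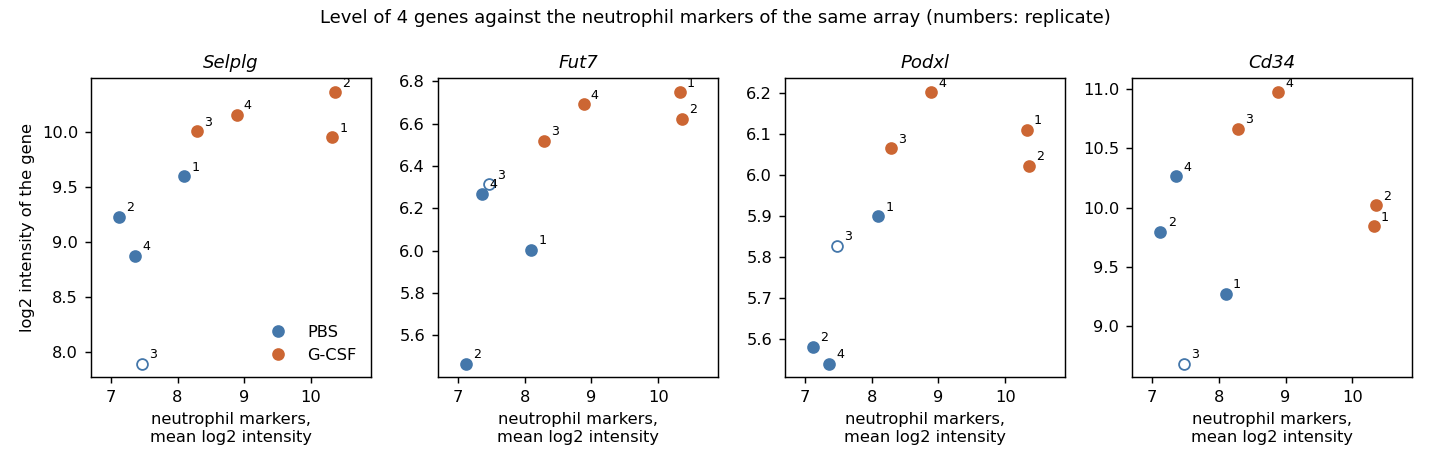
Log2 intensity of Selplg, Fut7, Podxl and Cd34 (vertical axes) against the mean log2 intensity of 16 neutrophil markers on the same array (horizontal axis), PBS in blue with replicate 3 open and G-CSF in orange, numbered by replicate. G-CSF replicates 1 and 2 hold the highest neutrophil marker means, 10.32 and 10.35, and the lowest G-CSF values of Cd34.

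Medians of the other marker lists were smaller. Those of megakaryocyte and platelet, erythroid and lymphocyte markers were negative, at -0.11, -0.26 and -0.25. Without PBS replicate 3 they were -0.20, -0.41 and -0.16. A list of 10 stem cell gate genes had a median of 0.04, and of -0.14 without that array. Granulocyte-monocyte progenitor markers were positive in 8 of 8 with a median of 1.02 and a summed intensity of 718 to 1889 after PBS and 1933 to 3252 after G-CSF. None of them passed over all genes with all 8 arrays, and 1 did without PBS replicate 3 (limma adjusted p = 0.0371), where the median was 0.91, and 1 with array weights (limma adjusted p = 0.0142). Monocyte and macrophage markers were positive in 8 of 10 with a median of 0.61, and their sums of 787 to 2401 and 1224 to 2585 overlapped. Leaving out PBS replicate 3, 7 of 10 were positive with a median of 0.40. Endothelial cells carry CD34 and podocalyxin too. Of 10 endothelial markers 7 were positive with a median of 0.09, and their sums were 543 to 927 after PBS and 975 to 1399 after G-CSF. The lowest sum was that of PBS replicate 3. Such sums weigh the brightest markers most, and these were Emcn, Pecam1, Esam and Tek. With PBS replicate 3 left out, 8 of 10 were positive with a median of 0.21. The defining genes Cdh5 and Kdr had log2 fold changes of -0.16 and 0.02 over all 8 arrays. PBS replicate 3 was their highest PBS array, at 5.48 and 4.93. Esam, Pecam1, Emcn and Tek, which stem cells also express, had 0.89, 1.18, 1.01 and 0.66, and none of them passed over all genes. PBS replicate 3 was their lowest PBS array, at 6.46, 5.74, 6.28 and 5.15, and Emcn had 0.62 without it. The contrast with Cdh5 and Kdr therefore depends in part on that array. CD34 is a progenitor antigen as well. The mean log2 level of the granulocyte-monocyte progenitor markers was 7.43, 7.04, 6.42 and 5.93 in PBS replicates 1 to 4. In G-CSF replicates 1 to 4 it was 7.96, 7.44, 7.22 and 7.89. Cd48 was highest in G-CSF replicates 3 and 4, as Cd34 was. How far endothelial or progenitor transcripts take part in the difference of Cd34 was not tested.

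The wider pathway was described by 3 lists made from textbook roles. The first held 37 further genes of glycan synthesis with a probe set of their own. None passed over all genes, and 3 were higher and 2 lower at an unadjusted p under 0.05. By that p, 6.07% of all genes were higher and 2.94% lower, and 9.74% of the brighter genes were higher. The median log2 fold change of the list was 0.13, as over the brighter genes. Without PBS replicate 3 it was 0.05, and 4 were higher and 2 lower, where 5.64% of all genes were higher. St3gal6, a sialyltransferase that shares with St3gal4 the sialylation of selectin ligands, was at 5.38, 5.52, 5.51 and 5.00 after PBS and at 6.35, 5.83, 6.20 and 6.59 after G-CSF. All G-CSF values of this gene, named for its low p, lay above all PBS values, as for 3.37% of all genes. The log2 fold change was 0.88 ± 0.21 SE (limma adjusted p = 0.213), and 0.94 without PBS replicate 3. Gfus, which makes the fucose donor GDP-fucose, had 0.73 ± 0.24 SE (limma adjusted p = 0.425) and the galactosyltransferase gene B4galt4 had 0.55 ± 0.17 SE (limma adjusted p = 0.387).

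Lower levels were found at St3gal1 and Chst2. St3gal1, which sialylates the short core of O-glycans and thereby competes with their branching, was at 9.38, 9.67, 8.87 and 9.88 after PBS and at 8.66, 8.72, 8.49 and 8.97 after G-CSF. The groups overlapped only through PBS replicate 3, and the log2 fold change was -0.74 ± 0.23 SE (limma adjusted p = 0.382), and -0.94 ± 0.17 SE without that array (limma adjusted p = 0.118). The mean of its probe sets gave -0.41 (limma adjusted p = 0.538). Chst2, a sulfotransferase of selectin ligands, was at 6.20 to 6.28 in the PBS arrays and at 5.48 to 5.89 in the G-CSF arrays, a log2 fold change of -0.60 ± 0.16 SE (limma adjusted p = 0.303). Gcnt1, the branching enzyme that prepares the O-glycans of PSGL-1, had -0.28 ± 0.16 SE (limma adjusted p = 0.578).

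The remaining enzymes of PSGL-1 decoration gave overlapping groups. Fut4, the other leukocyte fucosyltransferase, had a log2 fold change of 0.45 ± 0.36 SE, and in G-CSF replicates 1 and 2 it was at 5.93 and 6.52 against 4.90 and 5.24 in replicates 3 and 4. Leaving out 1 array gave Fut4 values from 0.16 (G-CSF replicate 2) and 0.22 (PBS replicate 2) to 0.70 (G-CSF replicate 3). Fut9 was dim, between 3.26 and 4.24 on all arrays, with -0.30 ± 0.21 SE. The tyrosine sulfotransferases Tpst1 and Tpst2 had 0.22 ± 0.27 SE and -0.23 ± 0.22 SE. Fut9 was at -0.13, Tpst1 at 0.11 and Tpst2 at -0.12 without PBS replicate 3. None of these 4 passed over all genes (limma adjusted p between 0.614 and 0.728).

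The second list held 12 genes of selectins and further ligands with a probe set of their own, with a median log2 fold change of 0.27, and 0.10 without PBS replicate 3. None passed over all genes. At an unadjusted p under 0.05, 4 were higher and 1 lower, where 6.07% of all genes were higher and 2.94% lower. Among the brighter genes 9.74% were higher. Without PBS replicate 3, 3 were higher and 0 lower, where 5.64% of all genes were higher. Sele, the gene of E-selectin, which is an endothelial protein, had -0.49 ± 0.22 SE (limma adjusted p = 0.55) and was the 1 lower gene. Its value was -0.36 without PBS replicate 3 (limma adjusted p = 0.661). Muc1, an epithelial mucin that blood cells can also carry, was at 4.89, 4.37, 5.04 and 4.83 after PBS and at 6.92, 6.87, 5.44 and 7.34 after G-CSF, a log2 fold change of 1.86 ± 0.35 SE (limma adjusted p = 0.1). It passed the threshold in 1 alternative, without G-CSF replicate 3, its lowest G-CSF array (2.26, limma adjusted p = 0.00789). Endomucin (Emcn), a sialomucin of vessels and stem cells, had 1.01 ± 0.39 SE (limma adjusted p = 0.501), and 0.62 without PBS replicate 3. The proteoglycan Vcan had 0.78 ± 0.18 SE (limma adjusted p = 0.209) and the lysosomal sialoglycoprotein Lamp2 0.63 ± 0.16 SE (limma adjusted p = 0.29). For both, all G-CSF values lay above all PBS values, as for 3.37% of all genes. Both were named for a low p, so this follows in part from the choice. Vcan and Muc1 were dim after PBS, with means of 4.34 and 4.78.

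**Figure D4:**
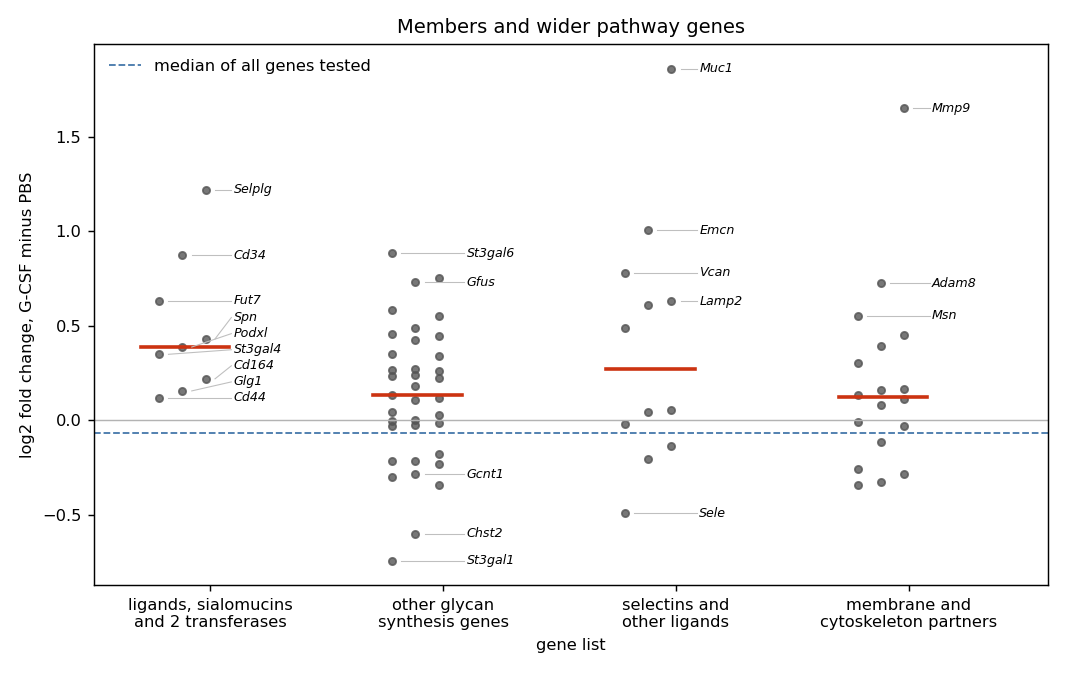
Log2 fold change of G-CSF over PBS (vertical axis) for the 9 members and for the 37, 12 and 18 measured genes of the wider lists (horizontal axis; sideways spread within a list has no meaning), with list medians in red and the median of all genes as a dashed line. Medians are 0.39, 0.13, 0.27 and 0.12 from left to right.

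The third list held 18 genes with a probe set of their own, for proteins that anchor, signal for or shed the members' products, and for hyaluronan synthases and a hyaluronidase, which make and cut the ligand of CD44, with a median log2 fold change of 0.12, and 0.03 without PBS replicate 3. None passed over all genes. At an unadjusted p under 0.05, 6.07% of all genes were higher and 2.94% lower, and 9.74% of the brighter genes were higher. Of this list, 2 were higher and 0 lower by that p, with PBS replicate 3 or without it. With all 8 arrays those were Mmp9, the gelatinase of neutrophil granules, with 1.65 ± 0.59 SE (limma adjusted p = 0.46), and Adam8, a sheddase of myeloid cells that can cleave PSGL-1, with 0.73 ± 0.26 SE (limma adjusted p = 0.461). Both were highest in G-CSF replicates 1 and 2, the arrays with the highest neutrophil marker means, Mmp9 at 8.61 and 9.13 against 6.23 and 6.64 in replicates 3 and 4, and Adam8 at 6.80 and 6.93 against 5.98 and 6.25. Moesin (Msn), which links PSGL-1, CD43 and CD44 to actin, had 0.55 ± 0.31 SE, and 0.20 ± 0.14 SE without PBS replicate 3. Ezrin (Ezr), of the same family, had 0.11 ± 0.18 SE, and 0.07 without it. Has1, Has2, Has3 and Hyal2, of hyaluronan turnover, were 4 of the 7 negative genes, between -0.32 and -0.12, where 11617 of all 19938 genes were negative. Has1, Has2 and Has3 were dim, with means of 4.72, 3.81 and 4.78 after PBS. Over the dimmest 4985 genes and the next 4984, PBS replicate 3 read high against the other PBS arrays, by medians of 0.52 and 0.43. The scaffold gene Slc9a3r1 had 0.30 ± 0.18 SE and the kinase gene Syk, which signals below PSGL-1, 0.45 ± 0.27 SE. Syk had 0.18 ± 0.18 SE without PBS replicate 3.

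Profiles most like that of Selplg were sought by the root mean square difference of log2 values over the 8 arrays, each gene centred on its own mean. The nearest were Ube2g2 (0.12), Tmed9 (0.16), Nfam1 (0.16), Nrm (0.18) and Cog4 (0.20), whose log2 fold changes were between 0.96 and 1.19. In each of them PBS replicate 3 lay below the mean of the other PBS arrays, by 1.24 to 1.45 on the log2 scale, as it did by 1.34 in Selplg. The genes were picked for likeness over these same arrays, so similar fold changes and a low PBS replicate 3 follow from the choice. Nearest to Cd34 were Tbc1d9b (0.19), Znrf1 (0.23), Tjp1 (0.24), Igfbp4 (0.25) and Tmem176b (0.25).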

How the data were processed

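Each array holds MoGene 1.0 ST signals of RNA pooled from 5 to 10 mice. The deposited table gives 1 linear intensity per probe set, and RMA is named in the submitters' processing notes; the sources used here give neither its version nor its options. No scanner file, detection call or date was used, and the number of arrays limits the precision. Intensities were taken to log2. Of 35556 probe sets, 21789 carried 1 gene symbol, 1621 several and 12146 none; per gene the probe set with the highest mean was kept, giving 19938 genes. The comparison of G-CSF with PBS used limma (version 3.58.1, under R 4.3.3; lmFit and eBayes, 2-sided, no covariate). P-values were adjusted over the 19938 genes by Benjamini-Hochberg, and 0.05 was the threshold. Single members were compared by exact permutation tests in scipy 1.17.1. Named genes were the members, the 5 of each wider list with the lowest p, a fixed set of enzymes, selectins and linkers (not all reported here), and the 5 profiles most like Selplg and Cd34. Members, lists and tests were chosen with earlier results of these data known. In simulated arrays with the real means and pooled spreads of 19938 genes, the test called 32 of the 67 genes given a log2 change of 1, 60 of 67 given 2 and 66 of 66 given 3, with 6 false calls. Genes were drawn independently, each with the same spread on every array. The simulation therefore held no array like PBS replicate 3, and its counts need not hold for the real arrays.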

Additional observations from a re-analysis of the deposited data

Results flagged for a closer look

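In 2 of 60 groups of 4 arrays examined, over the members and the other named genes, 1 array stood far from the rest of its group by Dixon's criterion, where chance alone gives about 1 in 20. Both were PBS replicate 3 and both were low. St3gal4 was at 5.54 there against 7.08 to 7.20 in the other PBS arrays, and Gfus at 5.77 against 6.42 to 6.53.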

How the results depend on the processing

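No member passed the adjusted threshold under any of the 19 alternatives, whose adjusted p values ran from 0.116 to 0.998. Of 171 member values under alternatives, 166 kept their direction. The 5 that reversed were 3 of Cd44 and 2 of St3gal4. Cd44 was at -0.0013 under array weighting and ran from -0.039 (PBS replicate 3 left out) to 0.21 as arrays were left out in turn; St3gal4 ran from -0.049 (PBS replicate 3 left out) to 0.50. Quantile normalization together with leaving out PBS replicate 3 gave -0.0688 for Cd44 and -0.069 for St3gal4. Members higher at an unadjusted p under 0.05 numbered 4, and 2 to 3 when each array was left out in turn; Selplg and Fut7 were among them each time, and these were the 2 left without G-CSF replicate 3 or 4. The 19 genes called over all genes became 40 with array weights, 10 after quantile normalization, 0 with all probe sets (limma; 1460 higher and 1283 lower at an unadjusted p under 0.05), 0 without variance moderation (888 and 685), and 3 to 31 as arrays were left out, 3 without G-CSF replicate 2, 7 without G-CSF replicate 4, 10 without G-CSF replicate 1 and 31 without G-CSF replicate 3. With the replicate number as a block, 23 genes passed and 3 members had an unadjusted p under 0.05. Deviations of same-numbered arrays correlated between -0.03 and 0.14, which cannot show whether the numbers mark pairs. The cause of these shifts was not tested. Signal over background could not be judged without detection calls.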
